A study of Mus musculus with 3 samples.

Results

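The 32 genes described here encode the enzymes, transporters and regulators that carry muscle glucose through glycolysis and into and out of glycogen. They were chosen by function, by a rule that uses no measured value but with earlier results of these data known, and were found on the arrays through the RefSeq accession of each probe, matched to gene symbols of assembly GRCm38.p6. All 32 had a probe, 50 probes in all, among 36638 genes or unnamed transcripts on the array. Of these, 7424 were tested, and 23 of the 32 were among them.

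Glycolysis splits glucose into pyruvate and yields ATP without oxygen, and muscle glycogen is the store that feeds it during contraction. Glycogen phosphorylase and its kinase release glucose units, glycogen synthase and the branching enzyme add them, and lactate made from pyruvate leaves the fibre through monocarboxylate transporters. Fast glycolytic fibres, the IIB type above all, carry more of most of these enzymes than slow oxidative fibres, and the mouse soleus is a mixed muscle rich in slow and IIA fibres.

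The study set muscle of mice that carried the LacZ allele of Mettl21c on both chromosomes (Mettl21cLacZ/LacZ, called KO) against muscle of wild-type mice (WT). Mettl21c is a protein lysine methyltransferase. All mice were C57BL/6 males aged 8 weeks on chow, and the muscle is labelled SOL, read here as the soleus. Each of 3 arrays held total RNA of 1 KO sample in Cy5 and 1 WT sample in Cy3. The dyes were never exchanged, so a probe's preference for one dye and the genotype cannot be told apart. The labels name no tissue-specific driver of the allele and do not say whether a sample is 1 animal or a pool.

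Of 59305 non-control spots per array, 22.5% to 22.9% had a KO signal well above background and 20.4% to 23.6% a WT signal. A log2 ratio below is KO over WT on 1 array after background correction with an offset of 50 and loess, and a level is the normalised log2 intensity of 1 channel. Mettl21c, the targeted gene, had levels of 6.39, 6.24 and 5.88 in KO samples, against 9.31, 8.20 and 8.35 in WT samples, on arrays 1 to 3. Its mean ratio was -2.45 with an SD of 0.48 over 3 arrays (limma adjusted p = 0.0175), and its KO signal stood well above background on array 1 alone. Without array 3 it missed the threshold (limma adjusted p = 0.0557). Where its probe lies relative to the deletion is not given in the files. The muscle label was checked against fibre markers. Myh7, the slow myosin heavy chain, was well above background in both channels of arrays 1 and 2 and had no value on array 3, where its spot carried an outlier flag. Myh2, the IIA myosin, was well above background in both channels of all 3 arrays.

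Array 3 had lost signal in one corner, and the region holds several of the glycolysis and glycogen genes. A bright spot was called lost when the average of its 2 log2 processed signals lay more than 3 units below the lower of the other arrays. On array 3 this held for 233 of 2961 bright spots, or 7.87%, against 1 spot each on arrays 1 and 2 (0.0347% and 0.0371%). The losses lay mostly in 18 of the 96 blocks into which the array was divided, where 38.7% of bright spots were lost, against 1.31% elsewhere. Of the 68 spots of the 32 genes, 15 lay in these blocks. Lost spots numbered 7 and belonged to 6 genes, namely Aldoa, Gapdh, Pfkm, Tpi1, Pgam1 and Ldhb. The map of signal loss on array 3 shows where they lie.

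**Figure D1:**
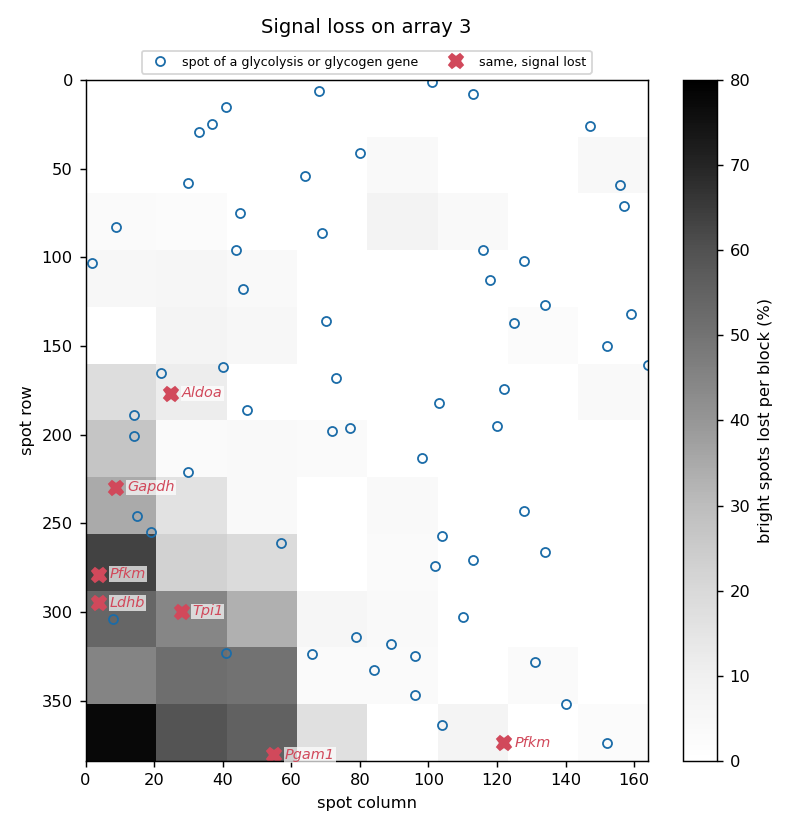
Spots of the 32 genes on array 3, by spot column and spot row. Grey shading gives the percentage of bright spots lost in each block, open circles are spots that kept their signal and red crosses the 7 that lost it, all in the shaded left part except 1 Pfkm spot at the lower right.

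No gene of the 32 passed the threshold. Aldoa, Gapdh, Pgk1 and Gbe1 had positive ratios on every array and the smallest p-values, though the spot of Aldoa was lost on array 3. For Gapdh this holds for the brightest probe, while another tested probe was lower in KO on all 3 arrays, with a mean of -0.63. Gpd1 had the lowest mean, and the direction of most of the others differed from array to array. In limma with Benjamini-Hochberg adjustment over 7424 genes, 0 of the 23 had an adjusted p under 0.05, and the smallest was 0.159. Over all genes tested 0% were called higher and 0.0404% lower at that threshold. Counted at an unadjusted p under 0.05, the 23 held 4 higher and 0 lower genes, against 5.90% higher and 7.53% lower over all genes. All 4 were among the 13 of the 23 genes with an average log2 level of at least 9, and among all 868 tested genes that bright, 25.7% were higher and 7.14% lower. A count of 4 of 13 is close to that background. The counts changed with the arrays used. Without array 2, with 23 of the 32 tested, they were 1 higher (Aldoa) and 3 lower (Gpd1, Slc16a3 and Eno3). Of all 7693 genes tested then, 329 were higher and 346 lower. That Aldoa call rests on array 1 and on the lost spot of array 3. Without array 3, with 28 of the 32 tested, the counts were 3 higher (Aldoa, Gapdh and Pygm) and 0 lower. Of all 9620 genes tested then, 524 were higher and 796 lower. With the ratios only centred and no loess, 15 of the 23 passed the adjusted threshold, all of them lower in KO, with a median of -0.40 over the 23, while 1014 genes in all were called higher and 1644 lower. The 23 means comprised 12 positive and 11 negative values with a median of 0.01, and the median over all genes tested was -0.0027. By array the median over the 23 was -0.02, 0.18 and -0.13 on arrays 1 to 3.

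The SD of the 3 ratios had a median of 0.21 over the 23 genes and of 0.12 over all genes tested. The 23 were brighter than most, with a median average log2 level of 9.16 against 6.86 over all genes. Beside the 200 tested genes nearest in brightness to each, whose SDs had a median of 0.17, 15 of the 23 had the larger SD. No such count was made over all genes. On all 3 arrays 5 of the 23 were higher and 3 were lower in KO, against 17.5% and 18.3% of all genes. Those higher throughout were Pfkm, Aldoa, Gapdh, Pgk1 and Gbe1, or 4 genes without Aldoa, whose spot on array 3 was lost. Gapdh is counted by its brightest probe, and another of its tested probes was lower throughout. Those lower throughout were Pfkfb1, Gys1 and Slc2a4, with the Gys1 spot of array 3 in a block with lost signal. With the defective spots left out, the brighter Gys1 probe stood at -0.06, with opposite signs on arrays 1 and 2. The plot of ratios by array shows all 23.

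**Figure D2:**
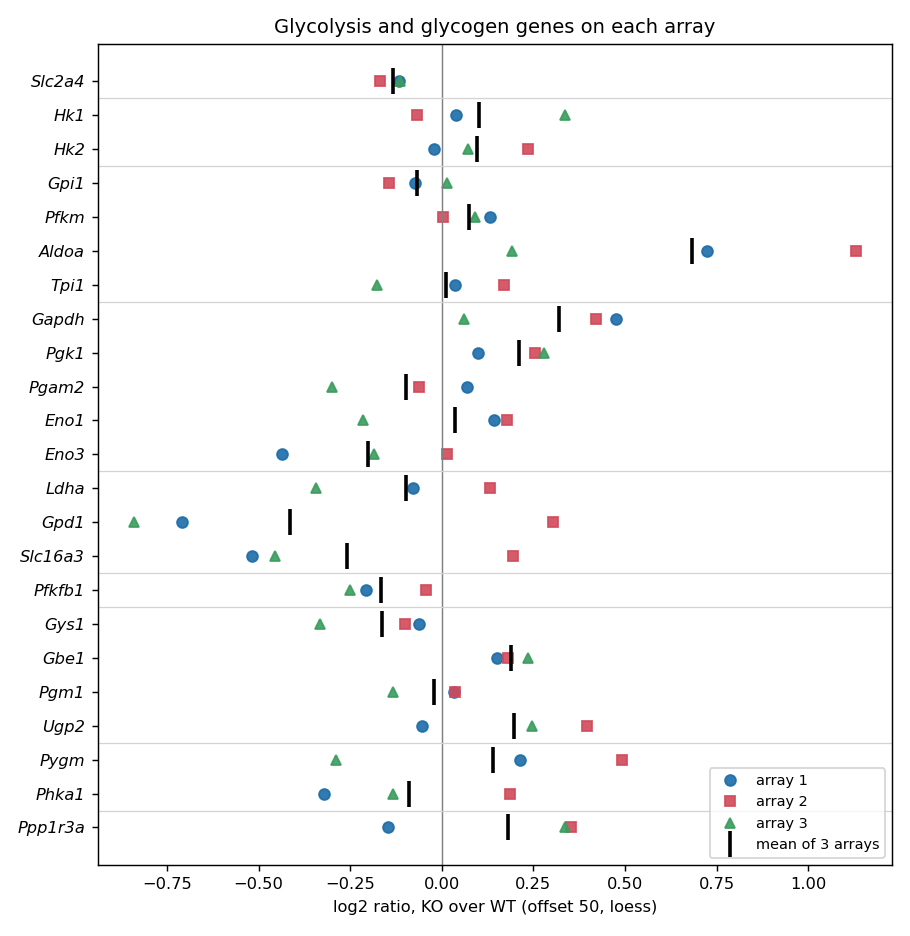
Log2 ratio of KO over WT for each of the 23 tested genes, grouped by role, with 1 symbol per array and a black bar at the mean. Aldoa reaches 1.13 on array 2 and Gpd1 -0.84 on array 3, and for most genes the 3 symbols lie on both sides of 0.

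Ratios kept a trend with brightness after loess, which touches the bright glycolytic genes. The median ratio of all genes was -0.05 at average levels from 7 to 8, 0.15 from 10 to 11, 0.24 from 11 to 12 and 0.34 at 12 or more. With a loess curve through only the spots well above background in both channels, chosen after this trend was seen, the same medians lay between -0.02 and 0.01. Each gene was therefore also set beside the 200 tested genes nearest to it in brightness. Against that local median, 8 of the 23 genes were higher, and the median difference was -0.03. Of all 7424 genes tested, 3739 were higher than theirs, with a median difference of 0.0005. How far the trend sets the ratio of any one gene was not tested.

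**Figure D3:**
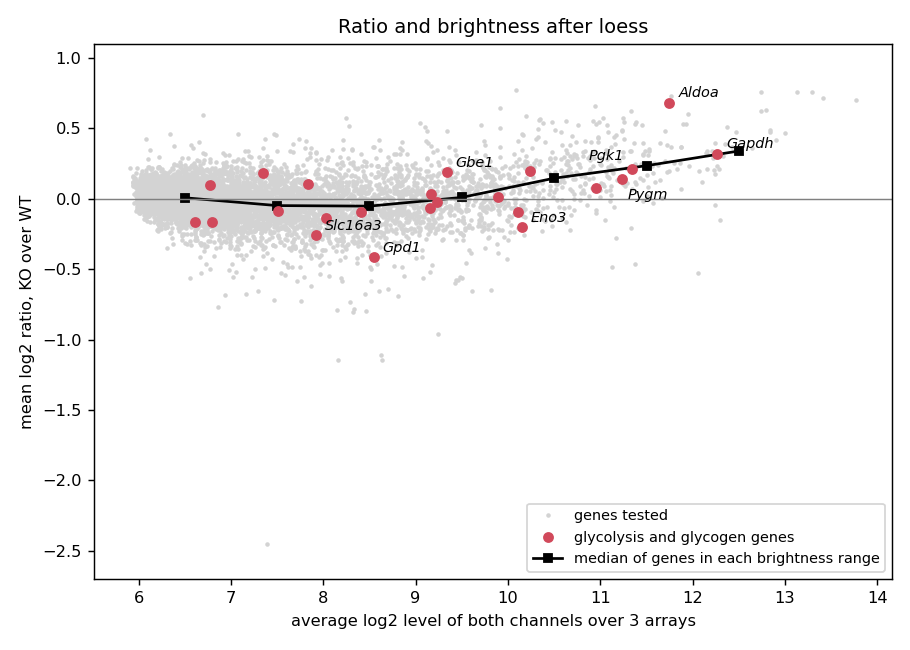
Mean log2 ratio of KO over WT (vertical axis) against average log2 level (horizontal axis) for all 7424 genes tested in grey and the 23 glycolysis and glycogen genes in red. The black line joins the median ratio of the genes in each brightness range and climbs to 0.34 at the bright end, where Gapdh lies beside it and Aldoa above it, and the grey point near -2.5 is Mettl21c.

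Glucose enters muscle through Slc2a4 (GLUT4, the insulin-responsive transporter) and Slc2a1 (GLUT1, the basal one). Slc2a4 had levels of 7.96, 7.80 and 8.14 in KO samples, against 8.08, 7.97 and 8.25 in WT samples. The KO level was the lower one on each array, while the ranges of the genotypes overlapped. Its ratios were -0.12, -0.17 and -0.11, a mean of -0.13 (SD 0.03, n = 3, limma adjusted p = 0.445). The probe is printed 10 times on the array, and its spots within 1 array spread around their mean with an SD of 0.10, 0.11 and 0.16 on arrays 1 to 3. That spread is between single spots, while the SD of 0.03 is between array means of these spots, so they are not like measures. Under the loess through spots well above background the mean was -0.07, and the local median of genes of like brightness was -0.07 in the ratios used here. Slc2a1 was well above background in the KO channel of array 1 and the WT channel of array 2 alone, and was not tested.

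Hexokinases commit glucose to the cell by phosphorylating it, Hk2 being the insulin-regulated muscle form and Hk1 the form found in most tissues. Hk1 had levels of 8.27, 8.01 and 7.39 in KO samples, against 8.24, 8.08 and 7.05 in WT samples. Hk2 had levels of 6.69, 6.80 and 6.94 in KO samples, against 6.71, 6.56 and 6.87 in WT samples. For both genes the genotypes overlapped and the arrays did not share a direction. The mean ratio was 0.10 for Hk1 (SD 0.21, n = 3, limma adjusted p = 0.692) and 0.10 for Hk2 (SD 0.13, n = 3, limma adjusted p = 0.652), and without array 3 Hk1 stood at -0.01.

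In the upper steps, Gpi1 interconverts glucose and fructose phosphates, the phosphofructokinases Pfkm (muscle form) and Pfkp (platelet form) catalyse the main controlled step, Aldoa (aldolase A) splits the sugar phosphate and Tpi1 interconverts the products. Aldoa had the largest mean ratio of the set, but its spot was lost on array 3. Its levels were 14.74, 14.95 and 6.04 in KO samples, against 14.02, 13.82 and 5.85 in WT samples. The processed signals were 388767, 495925 and 236 in KO samples, against 400409, 433718 and 80.5 in WT samples. On array 3 both samples lay near background, so the array gives no usable level of this gene. Its ratios were 0.72, 1.13 and 0.19, a mean of 0.68 (SD 0.47, n = 3, limma adjusted p = 0.159), which is 1.60-fold on the offset scale. With the defective spots of array 3 left out, an alternative chosen after seeing them, arrays 1 and 2 gave 0.93 (limma adjusted p = 0.0707). The processed signals gave -0.04 and 0.19 on arrays 1 and 2, and 1.55 from the lost spot on array 3. The loess through spots well above background gave 0.17, 0.39 and 0.18, a mean of 0.25 that includes the lost spot (limma adjusted p = 0.306). KO was higher on arrays 1 and 2 in the loess-normalised ratios. On these 2 arrays the ratio ran from -0.04 to 1.13 over these ways of balancing the dyes.

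Pfkm had levels of 10.96, 10.81 and 11.25 in KO samples, against 10.83, 10.81 and 11.16 in WT samples. The pairs lay close together and the genotypes overlapped. The mean ratio was 0.08 (SD 0.07, n = 3, limma adjusted p = 0.692), against a local median of 0.20 among genes of like brightness, and it was -0.11 under the loess through spots well above background. Its probe is also printed 10 times, with an SD between spots of 0.10, 0.14 and 0.14 on arrays 1 to 3, and 2 of its spots were lost on array 3 and carried outlier flags. Pfkp was not well above background in either channel of any array. Gpi1 had ratios of -0.07, -0.14 and 0.02 (mean -0.07, SD 0.08), and its dimmer tested probe was lower in KO on all 3 arrays, at -0.08, -0.06 and -0.28. The spot of that dimmer probe lay in a defective block of array 3, the array of the -0.28. Tpi1 had ratios of 0.04, 0.17 and -0.18 (mean 0.01, SD 0.17). Its spot lay in a defective block of array 3, and without it Tpi1 stood at 0.10 over arrays 1 and 2. The brightest probes of both genes differed in sign between arrays.

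In the lower steps, Gapdh oxidises glyceraldehyde phosphate, Pgk1 makes the first ATP, the mutases Pgam1 (broad) and Pgam2 (muscle) and the enolases Eno1 (broad) and Eno3 (muscle) rearrange the resulting acids, and Pkm makes pyruvate and ATP. Gapdh had levels of 12.46, 12.28 and 12.52 in KO samples, against 11.99, 11.86 and 12.46 in WT samples. The gap was wide on arrays 1 and 2 and narrow on array 3, and the ranges overlapped. Its ratios were 0.48, 0.42 and 0.06, a mean of 0.32 (SD 0.23, n = 3, limma adjusted p = 0.241), against a local median of 0.25. The other tested Gapdh probes did not share this value. Their means were -0.63, 0.05, 0.01 and 0.21, and over all 5 tested probes the gene stood at -0.01. The probe at -0.63 was lower in KO on all 3 arrays, at -0.51, -0.72 and -0.67, so the direction for Gapdh depends on the probe.

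Pgk1 had levels of 11.24, 11.499 and 11.59 in KO samples, against 11.14, 11.24 and 11.31 in WT samples. KO was the higher on each array, and the ranges overlapped. Its ratios were 0.10, 0.25 and 0.28, a mean of 0.21 (SD 0.10, n = 3, limma adjusted p = 0.288). Genes of like brightness had a median of 0.22, and under the loess through spots well above background Pgk1 stood at -0.03.

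**Figure D4:**
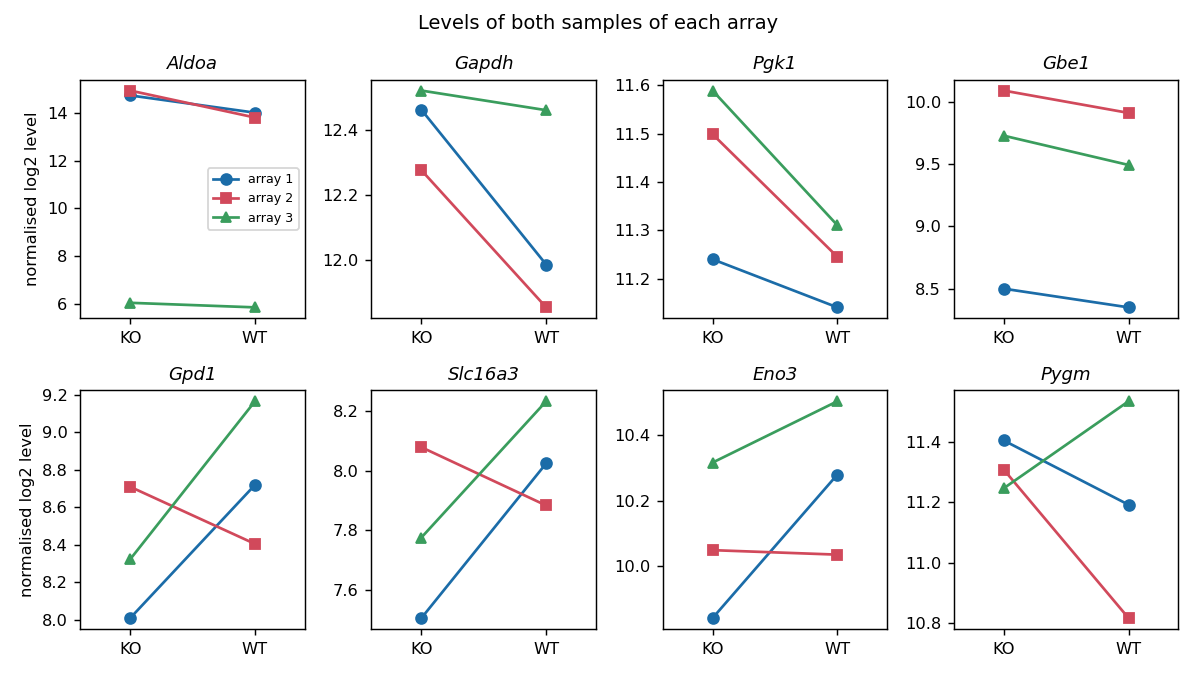
Normalised log2 level of 8 genes in the KO and the WT sample of each array, joined by a line per array, each panel with its own vertical axis. Aldoa drops to about 6 in both samples of array 3, Gapdh, Pgk1 and Gbe1 slope down to WT on every array, and Gpd1, Slc16a3 and Pygm have lines that cross.

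The muscle forms Pgam2 and Eno3 were measured on all arrays. Pgam2 had levels of 10.21, 9.89 and 10.14 in KO samples, against 10.14, 9.95 and 10.44 in WT samples, a mean ratio of -0.10 (SD 0.19, n = 3, limma adjusted p = 0.692). Eno3 had levels of 9.84, 10.05 and 10.32 in KO samples, against 10.28, 10.04 and 10.50 in WT samples. KO was lower on arrays 1 and 3 and barely higher on array 2. The ratios of Eno3 were -0.44, 0.01 and -0.19, a mean of -0.20 (SD 0.23, n = 3, limma adjusted p = 0.424), against a local median of 0.08. With the loess through spots well above background it stood at -0.51, -0.09 and -0.32, a mean of -0.30 (limma adjusted p = 0.306). Eno1 had levels of 9.69, 9.19 and 8.63 in KO samples, against 9.54, 9.01 and 8.85 in WT samples. Its arrays differed in sign, and the mean ratio was 0.04 (SD 0.22, n = 3, limma adjusted p = 0.914). Pgam1 and Pkm were not tested, since array 3 gave a lost spot for the one and an outlier flag for the other. On arrays 1 and 2 the ratios of Pgam1 were -0.02 and 0.03, and those of Pkm were 0.01 and 0.17.

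Lactate and glycerol phosphate take up the reducing power of glycolysis. Ldha (the muscle lactate dehydrogenase subunit) turns pyruvate to lactate, Ldhb is the subunit of oxidative tissues, Slc16a3 (MCT4) exports lactate from glycolytic fibres, and Gpd1 makes glycerol phosphate and regenerates NAD. All 3 tested genes of this group, Gpd1, Slc16a3 and Ldha, were lower in KO on arrays 1 and 3 and higher on array 2. The same order of signs was found in Phka1 and Eno3, which makes 5 of the 23 genes, or 21.7%, against 8.07% of all genes tested. Eno3 is among them by 0.01 on array 2, where it stood at -0.09 under the loess through spots well above background, and the other tested probes of Ldha were negative on array 2, at -0.47 and -0.26. This pattern of signs was picked out after the values were seen and was not tested. The promoters of those of the 5 genes with an entry in the RefSeq table of GRCm38.p6 are shown, and Gpd1 has no entry. They run from 250 bases before to 50 bases after the start, 5′ to 3′ on the gene's strand. Shared regulation of these genes was not tested. Capitals mark ACGTG, the core of sites bound by hypoxia-inducible factors, and CAGCTG, an E-box of the kind bound by myogenic factors. They also mark CTA followed by any 4 bases and TAG, a loose pattern that is broader than the MEF2 motif. Each was searched on both strands, so that a CACGT in capitals is an ACGTG of the other strand and a CACGTG is a match on both. The sequences lie at chr11:120948817-120949116 on the plus strand for Slc16a3, chrX:102644197-102644496 on the minus strand for Phka1, chr7:46845554-46845853 on the plus strand for Ldha and chr11:70656926-70657225 on the plus strand for Eno3.
Slc16a3: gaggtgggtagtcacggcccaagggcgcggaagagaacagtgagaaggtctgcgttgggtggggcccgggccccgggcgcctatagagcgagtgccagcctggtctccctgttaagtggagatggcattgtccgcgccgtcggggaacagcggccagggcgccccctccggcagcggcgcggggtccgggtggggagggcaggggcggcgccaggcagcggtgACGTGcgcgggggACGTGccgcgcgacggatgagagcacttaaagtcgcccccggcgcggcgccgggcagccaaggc
Phka1: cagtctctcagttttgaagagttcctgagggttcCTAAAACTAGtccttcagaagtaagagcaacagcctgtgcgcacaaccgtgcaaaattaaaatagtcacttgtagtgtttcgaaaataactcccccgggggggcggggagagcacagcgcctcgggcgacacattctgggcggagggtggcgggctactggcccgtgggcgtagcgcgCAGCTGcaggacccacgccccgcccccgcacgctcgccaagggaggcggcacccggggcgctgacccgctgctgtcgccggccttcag
Ldha: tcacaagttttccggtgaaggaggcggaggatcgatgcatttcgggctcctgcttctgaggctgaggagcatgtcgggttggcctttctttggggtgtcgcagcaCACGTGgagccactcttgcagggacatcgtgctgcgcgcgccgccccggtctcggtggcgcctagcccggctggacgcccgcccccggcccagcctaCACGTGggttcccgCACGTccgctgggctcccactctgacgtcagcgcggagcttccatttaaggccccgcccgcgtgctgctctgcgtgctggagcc
Eno3: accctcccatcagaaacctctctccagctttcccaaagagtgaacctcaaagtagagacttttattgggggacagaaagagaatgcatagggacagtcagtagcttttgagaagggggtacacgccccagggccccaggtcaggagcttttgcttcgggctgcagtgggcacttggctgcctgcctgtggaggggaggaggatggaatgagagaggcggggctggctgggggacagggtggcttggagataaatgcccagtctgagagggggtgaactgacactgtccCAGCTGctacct
Slc16a3 holds ACGTG at 2 positions, Ldha at 5 counting both strands, and Phka1 and Eno3 at none. Ldha has 2 annotated starts, and the promoter of the first listed is the one shown. CAGCTG occurs once each in Phka1 and Eno3, and the loose CTA pattern once in Phka1, where the 4 bases are AAAC. Of the 45 promoters of the 30 glycolysis and glycogen genes with an entry, 20 hold ACGTG (44.4%), 12 hold CAGCTG (26.7%) and 3 hold the loose CTA pattern (6.67%). Of all 32851 promoters of the same length in the table, the shares are 19.6%, 16.3% and 3.69%. A match of letters is a description and not a bound site.

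Gpd1 had the lowest mean ratio of the set. Its levels were 8.01, 8.71 and 8.32 in KO samples, against 8.72, 8.40 and 9.16 in WT samples. KO was lower on arrays 1 and 3 and higher on array 2, and the ranges overlapped. The ratios were -0.71, 0.30 and -0.84, a mean of -0.42 (SD 0.63, n = 3, limma adjusted p = 0.451). Without array 2 the mean was -0.77 and passed the threshold in limma (adjusted p = 0.0252), so array 2 decides whether Gpd1 is called. Slc16a3 had ratios of -0.52, 0.20 and -0.46, a mean of -0.26 (SD 0.40, n = 3, limma adjusted p = 0.489), and its other tested probe gave -0.50, 0.13 and -0.13. Both probes of this lactate exporter have the same signs. Ldha had levels of 8.44, 8.36 and 8.27 in KO samples, against 8.52, 8.23 and 8.61 in WT samples, a mean ratio of -0.10 (SD 0.24, n = 3, limma adjusted p = 0.737). Its dimmer tested probes stood at -0.39 and -0.13, with no positive ratio on any array. Ldhb was lost on array 3 and not tested, with ratios of -0.03 and -0.21 on arrays 1 and 2.

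IIB fibres are the fastest and most glycolytic type, and the tested genes of a short list of their markers had the same signs on the same arrays. That list was chosen with earlier results of these data known, and Actn3, Mybpc2 and Pvalb are also on the fast fibre list, since other fast fibres express them too. Actn3 stood at -1.39, 0.23 and -1.24 on arrays 1 to 3, Mybpc2 at -1.50, 0.37 and -0.95, and the brightest Pvalb probe at -1.38, 1.11 and -0.19, with its other tested probe at -0.72, 0.51 and -0.46. Myh4, the IIB myosin heavy chain, stood at -1.18 and 0.73 on arrays 1 and 2 and had no value on array 3. Over the 3 of 4 IIB markers tested the medians were -1.39, 0.37 and -0.95, and the limma adjusted p of the list's genes was 0.306 or more. The summed linear level of these 3 markers ran from 2370 to 10000 in KO samples and from 4960 to 8350 in WT samples, and none of the 4 was without signal on the arrays that measured it. Whether IIB fibre content sets the ratios of Gpd1, Slc16a3, Ldha, Eno3 and Phka1 was not tested. In a whole muscle, fewer fibres of a type and less RNA per fibre cannot be told apart.

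**Figure D5:**
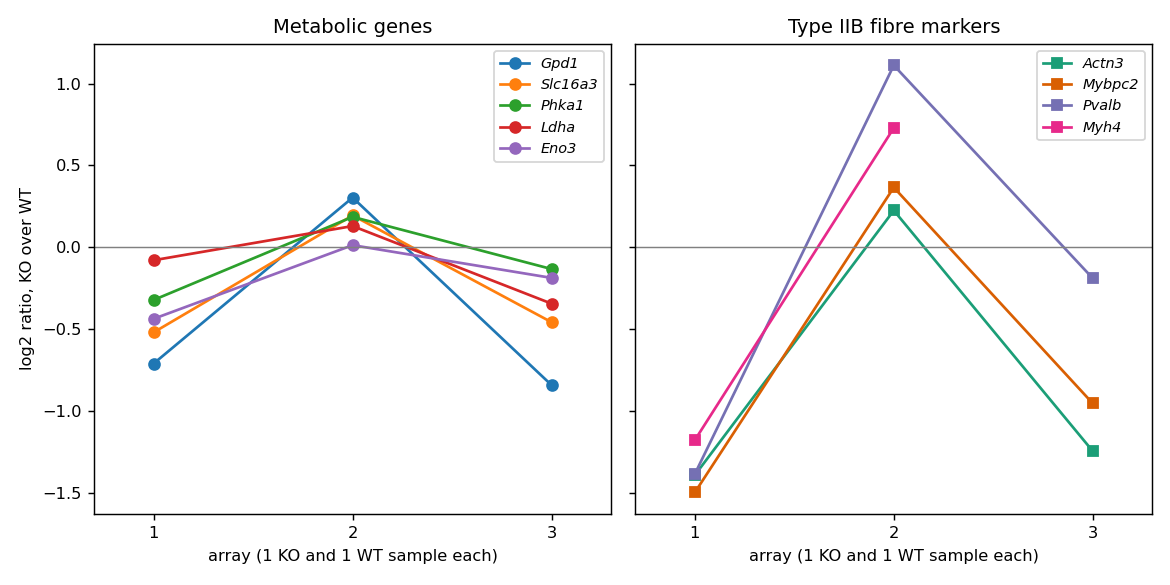
Log2 ratio of KO over WT on arrays 1 to 3 for the 5 metabolic genes that were lower on arrays 1 and 3 and higher on array 2 (left) and for 4 type IIB fibre markers (right), on a shared vertical axis. Lines join the values of 1 gene and imply no order among the arrays; the IIB markers spread from -1.50 to 1.11 and the metabolic genes from -0.84 to 0.30, and Myh4 has no value on array 3.

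The other fast and the slow fibre markers did not have that order of signs. Of 14 fast fibre markers 11 were tested, and 3 of them had it, the same Actn3, Mybpc2 and Pvalb. Mean ratios were positive for 4 of the 11 and negative for 7. The whole fast list had medians of -0.15, 0.06 and -0.09 on arrays 1 to 3 and summed levels from 13600 to 22000 in KO samples and from 15300 to 22500 in WT samples. Myh1 (IIX myosin) stood at -0.23 (SD 0.30), Mylpf (fast regulatory light chain) at -0.46 (SD 0.27) and Atp2a1 (fast calcium pump) at -0.65. Mylpf and Atp2a1 were lower in KO on every array. Chosen after their values were seen, the fast markers Tnnt3 and Tmod4 stood at 0.21 and 0.19 and were higher in KO on every array. The local median of genes of like brightness was 0.24 for each. With the loess through spots well above background, both stood at -0.08. The dimmer tested probe of Tnnt3 averaged -0.07. Myl1, chosen in the same way, stood at 0.07. Of 11 slow fibre markers 8 were tested, 6 with positive and 2 with negative means, and with medians of 0.12, -0.03 and 0.22 and summed levels from 13800 to 18100 in KO samples and from 10800 to 15100 in WT samples. Myh2 stood at 0.15, the slow light chain Myl3 at 0.49 and the slow troponin Tnnt1 at 0.40, each bright enough to fall where the ratios of all genes had a median above 0. Under the loess through spots well above background they stood at 0.06, 0.08 and 0.16. The dimmer tested probe of Tnnt1 was lower in KO on every array, at -0.06, -0.05 and -0.47. Myh7 stood at 0.52 and 0.10 on arrays 1 and 2. The 2 negative ones, also chosen after their values were seen, were Atp2a2 and Casq2. Atp2a2, the slow calcium pump, had ratios of -0.74, -1.13 and -1.56 on its brightest probe, a mean of -1.14 (limma adjusted p = 0.0809). Its dimmer tested probe gave -0.0032, 0.14 and 0.12, a mean of 0.09, so the direction for Atp2a2 depends on the probe. Casq2, the slow calsequestrin, stood at -0.11. Among other cell types, the tested markers had mean ratios with a median of 0.21 for red blood cells (3 of 9 tested), -0.24 for macrophages (6 of 9), -0.13 for endothelium (5 of 7), 0.13 for fat (5 of 7), -0.07 for tendon and fibroblasts (5 of 8) and -0.07 for Schwann cells (2 of 5). Their summed levels were 1010 to 2410 in KO samples and 829 to 1310 in WT samples for red blood cells, and 753 to 1420 in KO samples and 770 to 1820 in WT samples for macrophages. Their part in the ratios of the 23 genes was not tested.

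Pfkfb1 and Pfkfb3 set the level of fructose 2,6-bisphosphate, the activator of phosphofructokinase. Pfkfb1 had ratios of -0.21, -0.04 and -0.25, a mean of -0.17 (SD 0.11, n = 3, limma adjusted p = 0.391), against a local median of -0.02. It was dim. The processed signals, which differ in background and dye handling as well as in the offset, gave -0.37, -0.06 and -1.12, a mean of -0.51. An offset of 16 gave a mean of -0.24. Pfkfb3 was above background on some arrays only and was not tested.

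In glycogen synthesis, Pgm1 moves the phosphate that links glycolysis to glycogen, Ugp2 makes UDP-glucose, Gys1 (muscle glycogen synthase) extends the chain and Gbe1 adds the branches. Gbe1 had levels of 8.50, 10.09 and 9.73 in KO samples, against 8.35, 9.91 and 9.49 in WT samples. The arrays differed far more than the genotypes did, and KO was the higher on each array. Its ratios were 0.15, 0.18 and 0.24, a mean of 0.19 (SD 0.04, n = 3, limma adjusted p = 0.3004), against a local median of -0.0028. It stood at 0.15 (limma adjusted p = 0.452) under the loess through spots well above background and at 0.01 with the processed signals. Pgm1 had levels of 9.11, 9.26 and 9.32 in KO samples, against 9.08, 9.22 and 9.45 in WT samples. The pairs were close, with a mean ratio of -0.02 (SD 0.10, n = 3, limma adjusted p = 0.934). Pgm2, another phosphoglucomutase, stayed near background on every array. Ugp2 had ratios of -0.05, 0.40 and 0.25 (mean 0.20, SD 0.23), and its dimmer probe averaged -0.04. Gys1 had ratios of -0.06, -0.10 and -0.33, a mean of -0.16 (SD 0.15, n = 3, limma adjusted p = 0.435). The tested Gys1 probe was the dimmer one, and the brighter one stood at 0.12 and -0.24 on arrays 1 and 2 and carried an outlier flag on array 3. Both Gys1 spots lay in the blocks of array 3 with lost signal.

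In glycogen breakdown, Pygm is the muscle glycogen phosphorylase, and Phka1 and Phkg1 are the muscle regulatory and catalytic subunits of the kinase that activates it. Pygm had levels of 11.41, 11.31 and 11.25 in KO samples, against 11.19, 10.82 and 11.54 in WT samples. KO was higher on arrays 1 and 2 and lower on array 3. The ratios were 0.21, 0.49 and -0.29, a mean of 0.14 (SD 0.40, n = 3, limma adjusted p = 0.735), and under the loess through spots well above background the mean was -0.08. Phka1 had ratios of -0.32, 0.19 and -0.13, a mean of -0.09 (SD 0.26, n = 3, limma adjusted p = 0.774). Phkg1 was dim, with 1 of its 2 probes well above background in the WT channel of array 1 and the KO channel of array 3 alone, and was not tested.

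Ppp1r3a and Ppp1r3c bring protein phosphatase 1 to glycogen, where it activates the synthase. Ppp1r3a had ratios of -0.15, 0.35 and 0.34, a mean of 0.18 (SD 0.28, n = 3, limma adjusted p = 0.543), with its spot in a defective block of array 3, and without that spot it stood at 0.10 over arrays 1 and 2. Ppp1r3c had ratios of -0.01 and 0.72 on arrays 1 and 2, and an outlier flag on array 3 kept it out of the test. With the defective spots of array 3 left out and genes measured on 2 arrays allowed, 27 of the 32 were tested, and 0 passed the threshold in limma.

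Further genes of glucose and glycogen metabolism were listed for comparison, 97 in all, of which 52 were tested. At an unadjusted p under 0.05, 5 were higher and 3 lower, against 5.90% higher and 7.53% lower over all genes tested, and 0 passed the adjusted threshold in limma. The 6 of smallest p were Esrra, Gsk3b, Bsg, Mpc1, Ppp1cb and Gyg. Esrra, a nuclear receptor of mitochondrial and oxidative genes, stood at -0.31 (SD 0.12, limma adjusted p = 0.167). Gsk3b, a kinase that phosphorylates glycogen synthase, stood at -0.40 (SD 0.26, limma adjusted p = 0.179), and both dimmer probes, 1 of them tested, at 0.03. Over its tested probes Gsk3b stood at -0.19 (limma adjusted p = 0.361). Bsg, the membrane partner of lactate transporters, stood at -0.34 (SD 0.22, limma adjusted p = 0.201). These 3 were lower on every array. Mpc1, a subunit of the mitochondrial pyruvate carrier, stood at 0.32 (SD 0.22, limma adjusted p = 0.229), and its other probe at -0.05. Ppp1cb, a catalytic subunit of protein phosphatase 1, stood at 0.26 (SD 0.14, limma adjusted p = 0.243). Gyg, the glycogenin that primes the glycogen chain, stood at 0.37 (SD 0.34, limma adjusted p = 0.287), with 0.04 on array 1 and 0.71 on array 3, against a local median of 0.21, and at 0.16 under the loess through spots well above background. These 3 were higher on every array.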

How the data were processed

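For each spot the deposited scanner files give a median intensity and local background per channel, flags, and a processed signal. The processed intensity was background-subtracted and dye-normalised by Feature Extraction, version 12.0.3.1 per the file headers and 11.5 per the submitters' processing notes. The deposited log10 ratio, in those files and in the series matrix, is KO over WT and follows the dyes. The 2 sources differed by at most 5e-10 on arrays 1 and 2 and by 0.00499 on array 3. Column medians of the matrix were 0 on each array, and it was not centred further.

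Median spot intensities were corrected with normexp (offset 50) and loess within each array, with control and outlier-flagged spots (536, 572 and 1002 on arrays 1 to 3) at weight 0 and the flagged ones left out, in limma 3.58.1 (R 4.3.3, with the package data.table at 1.17.8). Against a median background of 17 in each KO channel and 32 to 36 in the WT channels, this offset pulls ratios of dim probes toward 0. No spot was saturated. Levels per channel were set between arrays with Aquantile. Spots of a probe were averaged, and testing was limited to the 8391 of 55681 probes that were measured on each array and whose KO or whose WT signal stood well above background each time. A gene was represented by its brightest tested probe, also where its probes differ. The mean log2 ratio of the 3 arrays was tested against 0, both ways, with lmFit and eBayes and Benjamini-Hochberg adjustment over 7424 genes at 0.05. SD values are between arrays. Each array pairs 1 KO with 1 WT sample. The labels call the samples biological replicates, and the number of arrays limits the precision.

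The genes and lists were chosen with earlier results of these data known. All 32 genes were to be named, with values of each sample for those with an unadjusted p under 0.05, an absolute mean of at least 0.3 or a place in an isoenzyme pair, and for Gapdh and Pygm. Of the other pathway genes the 6 of smallest p were named. Actn3, Mybpc2 and Pvalb were named after their values were seen. Alternatives numbered 13 planned and 2 added after seeing the data. The steps were tested on simulated arrays. Promoters came from RefSeq (GRCm38.p6).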

Additional observations from a re-analysis of the deposited data

How the results depend on the processing

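Leaving out 1 array gave 0 to 16 genes past the adjusted threshold in limma, 675 to 1320 at an unadjusted p under 0.05, and 0 to 1 of the glycolysis and glycogen genes past the adjusted threshold, the 1 being Gpd1 without array 2. Of those genes 1 to 4 were higher and 0 to 3 lower at an unadjusted p under 0.05. Means that changed sign without 1 array ranged from -0.036 to 0.16 for Eno1, -0.23 to 0.027 for Phka1, -0.070 to 0.10 for Tpi1, -0.038 to 0.35 for Pygm, -0.014 to 0.19 for Hk1, -0.21 to 0.026 for Ldha, -0.18 to 0.0039 for Pgam2 and -0.050 to 0.036 for Pgm1. Mettl21c ranged from -2.69 to -2.21, and without array 3 it did not pass (limma adjusted p = 0.0557).

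With no loess and centring on the tested probes, 2658 of 7424 genes passed the adjusted threshold in limma, 1014 higher and 1644 lower, among them 15 of the 23. At an unadjusted p under 0.05, 1624 genes were higher and 2096 lower, 3720 in all. Of the 23, 0 were then higher and 16 lower, with a median ratio of -0.40. Eno1 then stood at -0.37, Gapdh at -0.46, Gbe1 at -0.24, Gyg at -0.28, Hk1 at -0.12, Mpc1 at -0.035, Pfkm at -0.55, Pgk1 at -0.46, Pygm at -0.52, Tpi1 at -0.48 and Ugp2 at -0.34. With the processed signals 0 genes passed. At an unadjusted p, 393 of 7424 genes were higher and 412 lower (805 in all), beside 0 higher and 1 lower of the 23. Eno1 stood at -0.14, Gapdh at -0.051, Pfkm at -0.12, Pgk1 at -0.090, Pgm1 at 0.11, Pygm at -0.20, Tpi1 at -0.0079 and Mettl21c at -6.23 (limma adjusted p = 0.0680). The loess through spots well above background passed 1 gene, with 1 of the 23 higher (Aldoa) and 1 lower (Eno3) at an unadjusted p, and gave Gapdh -0.022, Pfkm -0.11, Pgk1 -0.026, Pygm -0.083 and Tpi1 -0.062.

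An offset of 16 passed 25 genes, 3 higher and 22 lower, and put Pfkm at -0.017 and Tpi1 at -0.011. At an unadjusted p, 1 of the 23 was higher, beside 457 of all 7424 genes. Keeping flagged spots passed 1 gene and put Tpi1 at -0.0022. The mean of all probes passed 1 gene, with Gapdh at -0.0073. At an unadjusted p it had 1 of the 23 lower, beside 566 of all 7424 genes. Array weights passed 62 genes, 45 higher and 17 lower, and put Pgm1 at 0.0047. Trended robust moderation passed 85, 41 higher and 44 lower. At an unadjusted p that moderation had 2 of the 23 higher, beside 522 of all 7424 genes. Requiring signal in both channels passed 0 genes (935 at an unadjusted p) and left Mettl21c and Aldoa untested. With no filter on dim probes 0 of 36218 genes passed, and Mettl21c at -2.45 did not pass (limma adjusted p = 0.172). At an unadjusted p, 2468 genes were called, 1241 of them lower. Of the 30 glycolysis and glycogen genes then tested, 3 were lower. With no replicate block, the 6 channels fitted as separate samples ignore the pairing within an array, and 0 genes passed. At an unadjusted p, 104 genes were higher and 154 lower (258 in all), and 0 of the 23 were higher. Mettl21c at -2.45 did not pass (limma adjusted p = 0.606). With the defective spots of array 3 left out, 1 of the 27 genes of the set then tested was lower at an unadjusted p. Of all 8527 genes tested, 663 were. The causes of these shifts were not tested. No other value of the 23 genes changed sign. Probes near background, outlier flags and spots lost on array 3 limit what was measured for 9 of the 32 genes.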
